A study of Mus musculus with 12 samples.

Results

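A set of 10 genes that carry T cells from G1 into S phase were followed in donor CD8 T cells before and after an allogeneic transplant: the cyclins Ccnd2, Ccnd3, Ccne1 and Ccna2, the kinases Cdk4, Cdk6 and Cdk2, and the CDK inhibitors Cdkn1a, Cdkn1b and Cdkn2c. They were chosen by symbol, all 10 were found among 35855 annotated genes, and for each gene the estimated counts and TPM (a level corrected for transcript length and library size) were summed over its transcripts in 12 libraries. The libraries form 4 groups of 3: WT and TCF-1 cKO (labelled TCF-7 cKO) CD8 T cells from C57BL/6 spleen before transplant, and donor cells of both genotypes sorted from recipient spleens at day 7. TCF-1 cKO mice carry a floxed allele of Tcf7, which encodes TCF-1, and a Cre driven by Cd4, so deletion starts in thymocytes and covers CD4 and CD8 T cells alike; the WT groups are not labelled as carrying Cre. Recipients of all post-transplant groups were lethally irradiated BALB/c mice, mismatched at the MHC, and WT bone marrow was given with the donor T cells in the transplants described. Donors and recipients were female and recipients adult, with donors matched to them in age where possible; exact ages of the sequenced animals and any pooling of mice were not given, so p-values measure the spread between these libraries.

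In GRCm38 Ccnd2 lies at chr6:127125162-127152193, Ccnd3 at chr17:47505051-47599691, Ccne1 at chr7:38097984-38107534, Ccna2 at chr3:36564865-36572150, Cdk4 at chr10:127063534-127067920, Cdk6 at chr5:3341485-3531008, Cdk2 at chr10:128697939-128705031, Cdkn1a at chr17:29090976-29100727, Cdkn1b at chr6:134920401-134925513 and Cdkn2c at chr4:109660876-109667189.

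In resting T cells the step from G1 to S phase is held back. D-type cyclins, made in response to antigen receptor and cytokine signals, bind Cdk4 and Cdk6 and start the phosphorylation of the retinoblastoma protein. This frees E2F factors, which switch on Ccne1, Ccna2 and the replication genes, and cyclin E and cyclin A then drive Cdk2. INK4 inhibitors such as Cdkn2c block Cdk4 and Cdk6, and CIP/KIP inhibitors such as Cdkn1a and Cdkn1b act on Cdk2 and also assist assembly of cyclin D complexes.

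The libraries held 18184814 to 32657005 estimated counts, except the 3 cKO pre-transplant libraries, with 4520270 to 9577076. The pre-transplant libraries labelled as sorted CD8 T cells carried B cell, myeloid and red cell genes. Cd8a, which encodes a chain of the CD8 coreceptor, stood at 26.5 to 154 CPM (counts relative to library size, scaled by TMM over all 12 libraries) before transplant and 478 to 906 CPM at day 7. All 6 B cell markers fell from pre- to post-transplant in both genotypes, and the summed TPM of the B cell list was 5699 to 12076 before and 119.8 to 308 after. Stage and cell make-up therefore cannot be told apart here, and in such bulk samples fewer cells of a type and less RNA per cell cannot be told apart either. In the labels, the source label of replicate 2 in the cKO day 7 group reads CD4, whereas its title reads CD8; Cd4 was at 2.04 to 7.00 CPM and Cd8a at 501 to 772 CPM over the 3 libraries of that group. As to the targeted gene, Tcf7 did not separate the genotypes at day 7: it was at 76.1 to 166 CPM in WT and 26.3 to 62.9 CPM in cKO libraries before transplant, but at 10.7 to 26.9 CPM in WT and 13.7 to 14.6 CPM in cKO libraries after, and the library labelled WT post-transplant replicate 3 was the lowest. The log2 fold change of Tcf7 was -1.35 before transplant and -0.91 at day 7, and edgeR called neither. The deleted exons are not given in the sources used here, so the sum may include Tcf7 exons that remain. At day 7 the 6 myeloid markers summed to 144 to 234 TPM in WT and 249 to 920 TPM in cKO libraries, and 2 of the 6 were called higher (Lyz2 and S100a9), with a median log2 difference over the list of 0.05, while 0 were called with the offset described below (median -0.36). The 5 CD8 T cell markers summed to 2121 to 2343 TPM in WT and 2796 to 3436 TPM in cKO libraries, and the 6 B cell markers to 217 to 308 and 119.8 to 192 TPM. The part of these differences in the genotype results was not tested.

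A further measure moved with the genotype groups. For each library, the median deviation from the 12-library mean was taken in the highest and in the lowest of 10 bins of GC content, and the difference was called the GC contrast (log2, 17274 genes). It was 1.60, 2.50 and -0.05 in WT post-transplant replicates 1 to 3 and -0.76, -0.89 and -1.18 in the cKO libraries. Before transplant it was 0.32, 0.82 and 0.60 in WT and -1.29, -1.48 and 0.63 in cKO libraries. So at day 7 the genotypes did not overlap in this measure, the library labelled WT replicate 3 lay nearest to the cKO libraries, and before transplant cKO replicate 3 lay among the WT libraries. The members' transcripts ranged from 45.0% GC for Cdkn1b to 59.4% GC for Ccnd3, and the genotype results below are also given with an offset, fitted per library, for the GC content and the length of the transcripts.

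The upstream sequences of 4 members are shown, 3 because their genes were called lower at day 7 with no overlap between genotypes (Ccnd3, Ccne1, Cdkn2c) and Cdk4 because its window held the TCF/LEF letters; they come from RefSeq (GRCm38.p6, 8 of the 10 members matched, 11 start sites; Ccnd2 and Ccna2 had no entry). Each run reads 5′ to 3′ towards the start site, in lower case, up to 250 bases and without bases that GENCODE M21 annotates as exon. Capitals mark any match to 4 motifs searched on both strands: TTTNNCGC (E2F), CTTTGAT (TCF/LEF, the family of TCF-1), TTTGAA (cell cycle homology region) and CCAAT.
Ccnd3, chr17:47593217-47593435, + strand: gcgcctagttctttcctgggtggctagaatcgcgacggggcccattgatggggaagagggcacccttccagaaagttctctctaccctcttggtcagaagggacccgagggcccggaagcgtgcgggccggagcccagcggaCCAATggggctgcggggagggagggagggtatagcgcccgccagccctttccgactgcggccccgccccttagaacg
Ccne1, chr7:38107535-38107740, - strand: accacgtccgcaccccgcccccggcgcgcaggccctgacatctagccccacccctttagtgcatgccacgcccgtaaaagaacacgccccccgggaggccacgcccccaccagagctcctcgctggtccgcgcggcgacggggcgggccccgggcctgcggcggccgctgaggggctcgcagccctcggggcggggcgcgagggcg
Cdk4, chr10:127063285-127063533, + strand: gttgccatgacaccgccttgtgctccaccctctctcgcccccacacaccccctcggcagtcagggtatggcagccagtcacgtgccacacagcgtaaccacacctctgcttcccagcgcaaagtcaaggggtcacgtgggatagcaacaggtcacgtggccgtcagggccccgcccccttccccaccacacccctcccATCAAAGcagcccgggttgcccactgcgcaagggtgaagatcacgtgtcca
Cdkn2c, chr4:109665373-109665609, - strand: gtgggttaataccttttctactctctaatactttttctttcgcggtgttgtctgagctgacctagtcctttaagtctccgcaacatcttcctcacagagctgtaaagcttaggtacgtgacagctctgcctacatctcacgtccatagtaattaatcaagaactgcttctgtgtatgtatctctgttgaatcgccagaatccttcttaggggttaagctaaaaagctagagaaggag

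Over the 11 full 250-base windows of the 8 matched members, E2F letters were found in 2 (Cdk6 and Cdk2), TCF/LEF letters in 1 (Cdk4, 52 bases before its start), CCAAT in 3 (Ccnd3, Cdk2 and Cdkn1b) and TTTGAA in 0. Among 32851 RefSeq windows of the same length, 4.28% held the E2F letters, 3.21% the TCF/LEF letters, 33.8% CCAAT and 16.0% TTTGAA. These are matches of letters only. The Ccnd3 window leads into Ccnd3-205, the transcript with 88.0% of the gene's counts over all libraries, and the Cdkn2c window into the shorter transcript Cdkn2c-201. That is the minor transcript, whose counts overlapped between genotypes at day 7. The longer Cdkn2c-202, with 86.4% of the Cdkn2c counts over all libraries, starts further upstream, and the sequence before it is not shown. Over their full 250 bases these 4 windows differed in composition, from 42.8% GC at this Cdkn2c start to 76.0% GC at Ccne1.

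Levels between genes were compared in TPM. Before transplant, Ccnd3, Cdk4 and Ccnd2 led in WT libraries, with medians of 201, 188 and 179 TPM whose ranges overlapped, and the next gene, Cdk2, was clearly apart at 22.0 TPM. The same 3 genes led in the cKO libraries, with medians of 129 TPM for Cdk4, 113 TPM for Ccnd3 and 107 TPM for Ccnd2. Over all 12 libraries, the 627-base transcript Ccnd2-206 held 45.5% to 68.1% of the Ccnd2 TPM but 6.77% to 20.9% of its counts. The level of Ccnd2 in TPM, and its ratio to Ccnd3 given below, therefore rest on how counts were assigned to this short transcript. At day 7, Ccnd3 (median 355 TPM) and Cdk4 (332 TPM) led in WT libraries with overlapping ranges, and Ccna2 followed at 49.02 TPM without overlap. In cKO libraries at day 7 the order was Cdk4 (85.2 TPM), Ccna2 (55.1 TPM) and Ccnd3 (44.6 TPM), with each neighbouring pair overlapping, and Ccnd2 came below these at 19.8 TPM. The lowest medians were those of Cdkn2c before transplant (4.66 TPM in WT, 1.60 TPM in cKO) and of Cdkn1b at day 7 (1.83 TPM in WT, 2.01 TPM in cKO). Cdk6 stayed at or below 14.3 TPM in every library, so Cdk4 was the far more abundant of the pair.

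**Figure D1:**
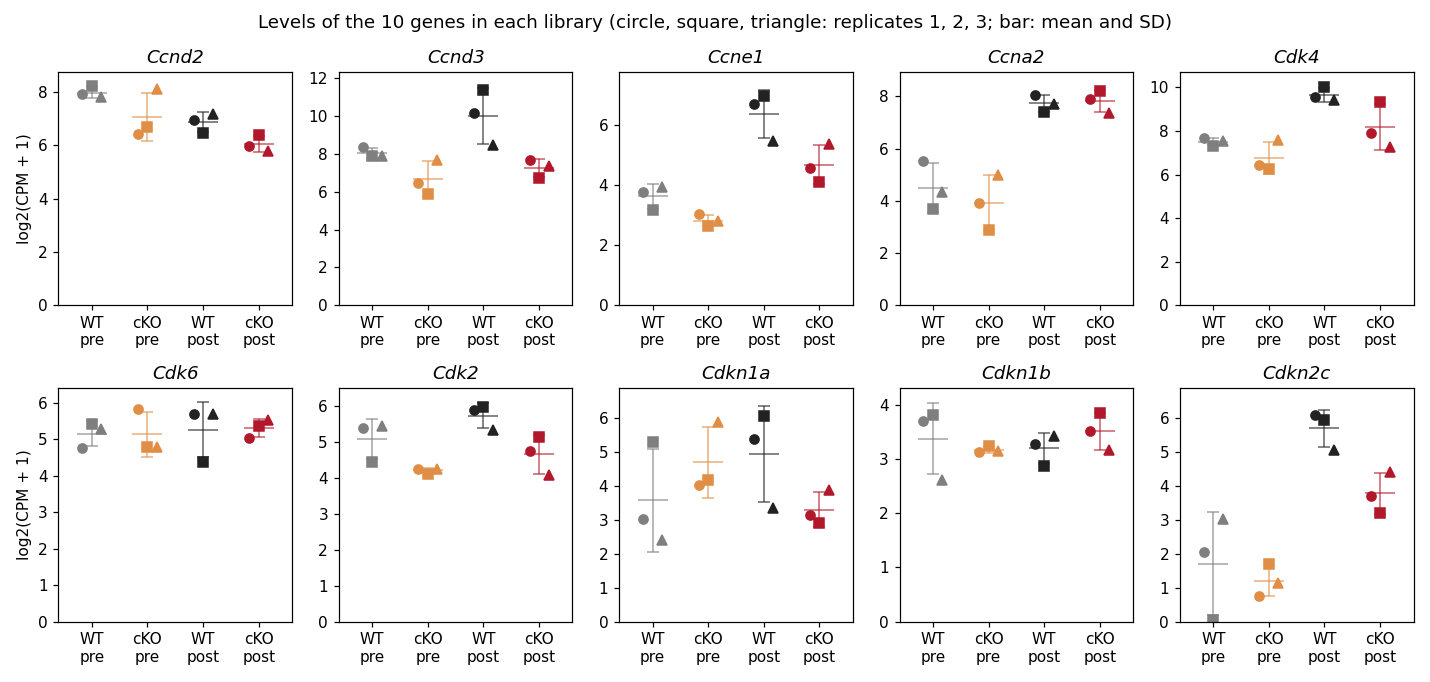
Level of each of the 10 genes as log2(CPM + 1) in all 12 libraries, by genotype and stage; symbols are replicates and bars the mean and SD of 3 libraries. Ccna2, Ccne1 and Cdkn2c stand higher at day 7 than before transplant in both genotypes without overlap, and Ccnd3, Ccne1, Cdk4, Cdk2, Ccnd2 and Cdkn2c are lower in cKO than in WT libraries at day 7 without overlap.

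The first comparison asked how these genes differed between cKO and WT libraries of the alloactivated cells at day 7. Of the 10 members, 4 were lower in cKO than in WT libraries at a false discovery rate below 0.1 (Ccnd3, Ccne1, Cdkn1a and Cdkn2c), and none was higher. Of all genes tested, 17.9% were called (15.4% lower and 2.51% higher), so 4 of 10 lower stands beside a background that was itself mostly lower. The CPM of the 2 groups did not overlap for 6 members, all lower in cKO (Ccnd2, Ccnd3, Ccne1, Cdk4, Cdk2 and Cdkn2c), against 17.3% of tested genes that were lower and 23.4% that were higher without overlap, 40.8% in all. In TPM, Cdk4 and Ccnd2 did overlap. There cKO replicate 2 had 251 TPM of Cdk4 and 33.5 TPM of Ccnd2, and the lowest WT library 249 and 27.7 TPM. Ccnd2, Cdk4 and Cdk2 had an unadjusted p below 0.05 but missed the threshold. For all genes the median difference was 0.15 on the log2 scale.

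Ccnd3, the D cyclin on which lymphocyte expansion most depends, stood at 1113, 2648 and 354 CPM in WT and 201, 104 and 164 CPM in cKO replicates 1 to 3. Every WT library was above every cKO library, but the library labelled WT replicate 3 was closer to the cKO libraries than to its own group. The log2 fold change was -3.46 ± 0.76 (SE, n = 3 per group; edgeR adjusted p = 0.0448). With the offset it was -0.83 ± 0.34 (edgeR adjusted p = 0.215), a change of more than 1.5 times in size. Ccnd2, the other D cyclin of T cells, was at 123, 86.8 and 143 CPM in WT and 61.3, 83.3 and 53.9 CPM in cKO libraries, a narrow separation. Its log2 fold change was -1.06 ± 0.45 (edgeR adjusted p = 0.166), and -1.32 ± 0.34 with the offset (edgeR adjusted p = 0.104), so it missed the threshold both ways. Ccnd1, the remaining D cyclin, had at most 9 estimated counts in any day 7 library and was not tested.

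Ccne1, whose cyclin activates Cdk2 at the start of S phase, was at 101, 122 and 42.7 CPM in WT and 22.4, 16.2 and 40.4 CPM in cKO libraries. The groups met closely at the library labelled WT replicate 3 and cKO replicate 3. The log2 fold change was -2.07 ± 0.62 (edgeR adjusted p = 0.0683) and -1.30 ± 0.50 with the offset (edgeR adjusted p = 0.196). Ccna2, the cyclin of S and G2 phase, was at 267, 169 and 208 CPM in WT and 237, 293 and 163 CPM in cKO libraries, fully intermixed, with a log2 fold change of -0.15 ± 0.46 (edgeR adjusted p = 0.848).

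Of the kinases, none passed the threshold at day 7. Cdk4 was at 751, 1027 and 681 CPM in WT and 241, 645 and 155 CPM in cKO libraries, and cKO replicate 2, the library with the CD4 label, reached nearly to the WT range. Its log2 fold change was -1.45 ± 0.62 (edgeR adjusted p = 0.167). Cdk2 was at 58.5, 62.4 and 39.2 CPM in WT and 25.8, 34.4 and 15.9 CPM in cKO libraries, with a log2 fold change of -1.34 ± 0.53 (edgeR adjusted p = 0.141). Cdk6, the second partner of D cyclins, was at 50.3, 19.8 and 51.0 CPM in WT and 32.0, 39.9 and 45.4 CPM in cKO libraries, which overlapped. Its log2 fold change of -0.29 ± 0.51 became -1.06 ± 0.41 with the offset (edgeR adjusted p = 0.193).

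Among inhibitors, the p21 gene Cdkn1a was at 41.5, 66.0 and 9.32 CPM in WT and 7.79, 6.51 and 13.7 CPM in cKO libraries. WT replicates 1 and 2 were high, but the library labelled WT replicate 3 was below cKO replicate 3, so the groups overlapped although the fitted change passed the threshold (log2 fold change -2.39 ± 0.77, edgeR adjusted p = 0.0858). With the offset the value was -1.11 ± 0.58 (edgeR adjusted p = 0.322). Cdkn1b, which encodes p27 and is largely controlled through protein turnover, was at 8.67, 6.32 and 9.75 CPM in WT and 10.4, 13.3 and 7.98 CPM in cKO libraries and did not separate (log2 fold change 0.13 ± 0.49). Cdkn2c, the p18 INK4 inhibitor of Cdk4 and Cdk6, was at 67.2, 60.5 and 32.6 CPM in WT and 12.2, 8.24 and 20.4 CPM in cKO libraries. All 3 WT libraries were higher, with a log2 fold change of -2.29 ± 0.58 (edgeR adjusted p = 0.0474), but with the offset it was -0.51 ± 0.46 (edgeR adjusted p = 0.559).

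**Figure D2:**
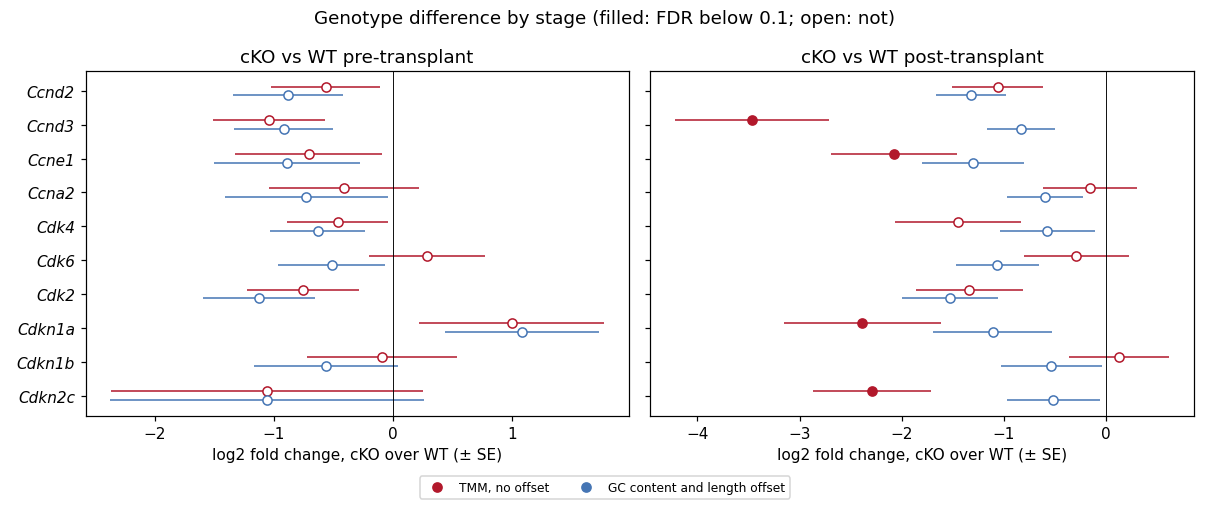
Log2 fold change of cKO over WT with its SE for each gene before transplant (left) and at day 7 (right), from the TMM fit and from the fit with the offset for GC content and length; filled points have a false discovery rate below 0.1. At day 7 the 4 filled points (Ccnd3, Ccne1, Cdkn1a, Cdkn2c) all move towards 0 with the offset and none is filled there, while all 10 offset values are below 0.

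These calls moved with the GC measure and with single libraries. In the offset fit 0 of the 10 members passed at day 7 and 550 genes did in all, while all 10 log2 fold changes were negative, from -1.53 for Cdk2 to -0.51 for Cdkn2c, beside a median of -0.14 over all genes in that fit. In that fit 5 members (Ccnd2, Ccnd3, Ccne1, Cdk6 and Cdk2) had an unadjusted p below 0.05, as had 3278 genes. When the 16026 tested genes were split into 10 bins of GC content, their median change was 0.68 (log2) in the lowest bin (median 39.1% GC) and -2.65 in the highest bin (58.7% GC). Each of the 10 members lay below the median of genes of like GC content, by 0.35 for Cdk4 to 1.69 for Ccne1 on the log2 scale. Within the spread of their bins they stood between percentile 11.5 (Ccne1) and percentile 42.5 (Cdk4). Leaving out any one library other than that labelled WT replicate 3 left 0 members called, where only 0 to 2 genes were called in all. Leaving out the library labelled WT replicate 3 left 6 members (Ccnd3, Ccne1, Cdk4, Cdk2, Cdkn1a and Cdkn2c) among 5299 of 18183 genes. Over the 6 day 7 libraries, the correlation of log2 CPM with the GC contrast ran from r = 0.98 for Ccnd3 to r = -0.67 for Cdkn1b; the libraries share the genotype split, so this describes these libraries only, and its part in the results was not tested.

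**Figure D3:**
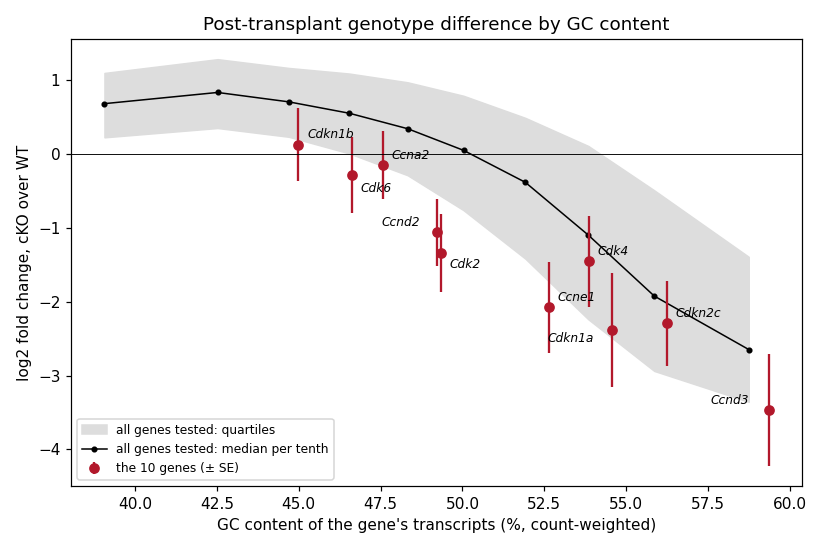
Log2 fold change of cKO over WT at day 7 against the GC content of each gene's transcripts. The line and band give the median and quartiles of all 16026 tested genes in 10 bins of GC content and the points the 10 genes with their SE; all 10 points lie below the line, which falls from 0.68 to -2.65.

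Transcript shares at day 7 are given next and were not tested. For the leading transcripts of Cdkn2c, Cdkn1a and Ccnd3 the shares overlapped between genotypes. For Cdkn2c, the transcript Cdkn2c-202 (2471 bases, 58.0% GC) held 96.3%, 98.4% and 81.0% of the gene's counts in WT and 72.3%, 76.0% and 81.7% in cKO libraries, with the rest in Cdkn2c-201 (1106 bases, 44.8% GC). In counts, Cdkn2c-202 had 309 to 1344 in WT and 79.8 to 270 in cKO libraries, whereas Cdkn2c-201 had 12.7 to 72.5 and 25.2 to 60.3, which overlapped. For Cdkn1a, Cdkn1a-203 held 14.8%, 59.3% and 68.4% of counts in WT and 48.3%, 51.8% and 54.7% in cKO libraries, so the WT libraries spanned the cKO range. Ccnd3-205 held 89.6% to 97.5% of Ccnd3 counts in every day 7 library. The minor transcript Ccnd3-215 had 715, 806 and 70.3 estimated counts in WT and 0, 0.057 and 0 in cKO libraries at day 7, without overlap, and before transplant 804 to 1888 in WT and 0.00294 to 785 in cKO libraries. About equal shares of Ccna2 counts went to Ccna2-203, annotated as a target of nonsense-mediated decay, and to the coding Ccna2-201, a split between transcripts that share exons and that rests on the estimation by Kallisto.

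Before transplant the same question was asked of the donor cells. None of the 10 members was called between cKO and WT by edgeR, where 7 of 18757 genes (0.0373%, with 0.016% higher and 0.0213% lower) were; 1 member, Ccnd3, had an unadjusted p below 0.05, as did 3322 genes, and the limma-voom and DESeq2 tests called 0 members too. The CPM of 3 members did not overlap and were lower in cKO (Ccnd3, Ccne1 and Cdk2), against 14.2% of tested genes (16.1% were higher and 30.3% did not overlap in all). Ccnd3 was at 327, 237 and 233 CPM in WT and 85.4, 57.0 and 205 CPM in cKO libraries, with a log2 fold change of -1.04 ± 0.47 (edgeR adjusted p = 0.275). Cdk2 was at 40.9, 20.6 and 42.4 CPM in WT and 18.0, 16.4 and 18.2 CPM in cKO libraries (log2 fold change -0.75 ± 0.47). Ccne1, at 7.94 to 14.3 CPM in WT and 5.21 to 7.12 CPM in cKO libraries, differed by -0.70 ± 0.62. Cdkn1a had the highest estimate, 0.999 ± 0.78, from 7.24, 38.5 and 4.32 CPM in WT and 15.3, 17.1 and 58.9 CPM in cKO libraries, each group holding 1 high library. Without cKO replicate 3, whose GC contrast was like that of WT libraries, 3 members were called lower (Ccnd2, Ccnd3 and Cdk4) among 2739 of 21575 genes. The summed TPM of the CD8 T cell markers was 931 to 979 in WT and 412 to 452 in cKO libraries and that of the B cell markers 9138 to 12076 and 5699 to 9537; the part of this difference in make-up was not tested.

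The change from before transplant to day 7 asked how the genes moved as resting donor cells became alloactivated. In WT libraries 6 of 10 members changed, where 20% of all genes did (9.7% higher, 10.3% lower; with the offset 2053 genes were higher and 1378 lower, against 1628 and 1734 without): Ccne1, Ccna2, Cdk4, Cdkn2c and Ccnd3 rose and Ccnd2 fell. In cKO libraries 6 changed as well, where 36.5% of all genes did (19.7% higher, 16.8% lower): Ccne1, Ccna2, Cdk4 and Cdkn2c rose, and Ccnd2 and Cdkn1a fell. All these calls are on counts scaled by TMM. The rises of Cdk4 and Ccne1 in cKO libraries were not seen in TPM. Mean TPM there was 150 before and 130 at day 7 for Cdk4, and 11.6 before and 7.51 at day 7 for Ccne1. The pre-transplant libraries held B and myeloid cell RNA as given above, so these are differences between the sequenced samples. Whether called or not, the CPM of the stages did not overlap for 32.2% of genes in WT (15.9% higher, 16.2% lower) and 46.9% in cKO libraries (23.1% higher, 23.9% lower). The median of all genes shifted by -0.30 in WT and -0.29 in cKO libraries on the log2 scale. Single libraries mattered. Without WT pre-transplant replicate 3 only Ccne1 stayed called in WT, among 1579 of 18860 genes. Without WT pre-transplant replicate 1 Ccne1, Ccna2 and Cdk4 did, among 1945 of 18168 genes. Without cKO post-transplant replicate 1 or replicate 2 Ccne1, Ccna2 and Cdkn2c did in cKO libraries, among 5242 of 19750 and 5287 of 19579 genes.

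Ccna2 had the largest rise in cKO libraries, from 14.1, 6.37 and 30.8 CPM to 237, 293 and 163 CPM (log2 fold change 3.76 ± 0.60, edgeR adjusted p = 0.00157). In WT libraries Ccna2 went from 45.0, 11.8 and 19.1 CPM to 267, 169 and 208 CPM (2.86 ± 0.63, edgeR adjusted p = 0.0149). In both genotypes the stages did not overlap. Ccne1 went from 12.7, 7.94 and 14.3 CPM to 101, 122 and 42.7 CPM in WT (2.71 ± 0.62, edgeR adjusted p = 0.0182) and from 7.12, 5.21 and 5.91 CPM to 22.4, 16.2 and 40.4 CPM in cKO libraries (2.10 ± 0.49, edgeR adjusted p = 0.0109). In CPM these E2F-driven cyclins were thus higher at day 7 in each genotype, and both were still called with the offset. In TPM this held for Ccna2 without overlap in either genotype, but the stages of Ccne1 overlapped in both. Ccne1 in cKO libraries was at 6.39 to 18.8 TPM before and 5.32 to 10.3 TPM at day 7. Its mean in WT libraries was 11.5 TPM before and 23.8 TPM at day 7.

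Cdk4 rose from 202, 159.8 and 187 CPM to 751, 1027 and 681 CPM in WT libraries (1.91 ± 0.44, edgeR adjusted p = 0.0187). In cKO libraries it went from 86.0, 75.2 and 192 CPM to 241, 645 and 155 CPM (1.56 ± 0.59, edgeR adjusted p = 0.0774), where the stages overlapped because replicate 3 had 192 CPM before and 155 CPM after. Cdk6 and Cdk2 passed in neither genotype. Cdk6 was at 26.0 to 41.9 CPM before and 19.8 to 51.0 CPM after in WT libraries, with a log2 fold change of -0.04 ± 0.58, and at 26.4 to 56.2 CPM before and 32.0 to 45.4 CPM after in cKO libraries (0.09 ± 0.43). Cdk2 differed by 0.39 ± 0.55 in WT and 0.52 ± 0.42 in cKO libraries.

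Among D cyclins, Ccnd3 rose in WT libraries from 327, 237 and 233 CPM to the day 7 levels given above (2.13 ± 0.67, edgeR adjusted p = 0.0598), whereas in cKO libraries the difference was 0.43 ± 0.50 (edgeR adjusted p = 0.558). With the offset both genotypes passed, at 1.17 ± 0.42 in WT (edgeR adjusted p = 0.0912) and 0.94 ± 0.29 in cKO (edgeR adjusted p = 0.0383). The direction depended on the measure. In TPM, Ccnd3 in cKO libraries was lower at day 7 without overlap, at 113, 72.1 and 172 before and 55.0, 34.5 and 44.6 after. In WT libraries the stages overlapped in TPM, as day 7 replicate 3, at 104 TPM, lay below the 176 to 264 TPM before transplant. Ccnd2 fell in WT libraries from 239, 295 and 221 CPM to 123, 86.8 and 143 CPM (-1.34 ± 0.46, edgeR adjusted p = 0.0842) and in cKO libraries from 85.3, 101 and 272 CPM to 61.3, 83.3 and 53.9 CPM (-1.20 ± 0.49, edgeR adjusted p = 0.0950). Both calls ended with the offset, at -0.14 ± 0.34 and -0.66 ± 0.46. Ccnd2 is also made by other blood cells, and the 6 B cell markers and 2 to 4 of 6 myeloid markers fell over the same interval; their part in the change was not tested.

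Cdkn2c was low before transplant, at 3.14, 0.0351 and 7.15 CPM in WT libraries (1 estimated count in replicate 2) and 0.703, 2.22 and 1.22 CPM in cKO libraries (8 to 23 estimated counts). It rose to 32.6 to 67.2 CPM in WT (3.73 ± 1.20, edgeR adjusted p = 0.0652) and to 8.24 to 20.4 CPM in cKO libraries (3.29 ± 0.66, edgeR adjusted p = 0.00525) without overlap. In TPM the stages overlapped in cKO libraries, at 1.29 to 3.56 TPM before and 2.47 to 5.28 TPM at day 7. Cdkn1a fell in cKO libraries, from 15.3, 17.1 and 58.9 CPM to 7.79, 6.51 and 13.7 CPM (-1.70 ± 0.61, edgeR adjusted p = 0.0655), while in WT libraries the difference was 0.99 ± 0.93. Cdkn1b, at 5.13 to 13.3 CPM in all 12 libraries, did not pass in either genotype.

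Whether the stage change differed between genotypes was tested directly. None of the 10 members passed, where 1 of 21526 genes (0.00465% lower and 0% higher) did by edgeR. The largest differences (cKO change minus WT change) were -2.92 ± 1.20 for Cdkn1a and -1.94 ± 0.90 for Ccnd3, both with an unadjusted edgeR p below 0.05 (0.0270 and 0.0469), as had 3377 genes, and with adjusted p of 0.279 and 0.314. DESeq2 called 1 member, Cdkn1a (-3.24, DESeq2 adjusted p = 0.0812), among 1713 of 21526 genes, and limma-voom called 0. With the offset the values were -2.45 ± 0.98 for Cdkn1a and -0.46 ± 0.61 for Ccnd3. Without the library labelled WT post-transplant replicate 3, Ccnd3 passed (-2.38, edgeR adjusted p = 0.0911), among 2093 of 23972 genes.

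Ratios within a library compare related members without the scaling between libraries. The Ccnd2 to Ccnd3 ratio (log2 of TPM + 1) was -0.59, 0.72 and 0.03 in WT and -0.73, 0.57 and 0.47 in cKO libraries before transplant, and -2.94, -4.43 and -1.26 in WT and -1.43, -0.04 and -1.43 in cKO libraries at day 7. Averaged over the genotypes it differed by -1.999 log2 units between day 7 and before (two-sided exact permutation test, p = 0.015, adjusted p = 0.09 over 6 tests, where 0.005 was the smallest possible p), so it did not pass 0.05 after adjustment; in CPM the difference was -2.33 with an exact permutation adjusted p = 0.03. By genotype it differed by 0.98 (exact permutation p = 0.17). The Cdk6 to Cdk4 ratio was negative in all 12 libraries, from -5.67 to -2.95, and differed by -0.76 between stages (exact permutation p = 0.155) and by 0.50 between genotypes (exact permutation p = 0.365). The Cdkn1b to Cdkn1a ratio was also negative in every library, from -4.21 to -0.17, with differences of 0.61 by stage and 0.20 by genotype (exact permutation p = 0.52 and p = 0.81).

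**Figure D4:**
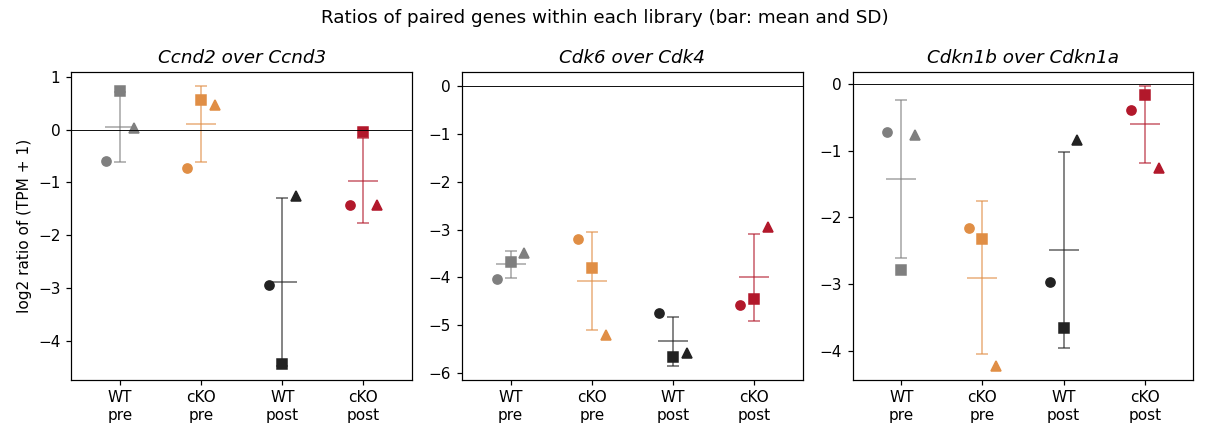
Log2 ratio of (TPM + 1) between paired genes in each of the 12 libraries, by genotype and stage, with the mean and SD of 3 libraries. The Ccnd2 to Ccnd3 ratio is near 0 before transplant and between -4.43 and -0.04 at day 7; the other ratios are below 0 throughout.

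The genes around the members give the setting. Of 70 further genes in 14 lists of the pathway, 68 were tested at day 7, and 18 were lower and 2 higher in cKO libraries (17.9% called among all genes), with a median log2 fold change of -0.21 against 0.15 for all genes. Among INK4 inhibitors, Cdkn2d (-2.38 ± 0.63, edgeR adjusted p = 0.0518) and Cdkn2a (-4.31 ± 1.46, edgeR adjusted p = 0.0971, from at most 59 estimated counts) were lower along with Cdkn2c, and Cdkn2b was not called. Among 10 E2F and DP factors 3 were lower: E2f4, a mostly repressive E2F (-3.60 ± 0.80), E2f2 (-2.49 ± 0.64) and E2f1 (-2.39 ± 0.78). Of 15 E2F targets 6 were lower, those with the smallest p being the replication licensing genes Mcm3 (-2.51 ± 0.53), Cdt1 (-3.27 ± 0.76) and Mcm2 (-2.60 ± 0.64). The other 9 did not pass, and the median log2 fold change over the 15 was 0.20, so the list as a whole was not lower in this fit. With the offset the median over the 15 was -0.30, beside -0.14 over all genes. Cdc25b, a phosphatase that activates CDKs (-3.33 ± 0.74), and Pkmyt1, a kinase that restrains Cdk1 (-2.84 ± 0.76), were lower, while the phosphatase Cdc25c was higher (1.89 ± 0.47).

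All ± values of these lists are SE from edgeR. Among ubiquitin ligase subunits, the APC/C activators Fzr1 (-3.12 ± 0.67) and Cdc20 (-2.09 ± 0.67) were lower and the SCF subunit Skp1a was higher (1.61 ± 0.53). The quiescence factors Btg2 (-1.75 ± 0.51) and Klf2 (-1.82 ± 0.56) were lower as well, 2 of 7 in that list. Trp53, whose protein switches on Cdkn1a, was lower (-3.90 ± 0.77) and was the 1 of 7 called in its list. No pocket protein, CDK-activating kinase subunit or proliferation marker passed. Rbl2 was at 0.49 ± 0.55, Cdk7 at 1.52 ± 0.79 and Top2a at 0.86 ± 0.59, and Cdk1, the mitotic kinase, was at 1.01 ± 0.49. Cdk1, at 178 to 699 CPM in WT and 790 to 966 CPM in cKO libraries, was higher without overlap but not called. The same held for Ccnb1 (159 to 318 and 441 to 705 CPM) and Ccne2, the other cyclin E gene (4.68 to 59.8 and 92.3 to 164 CPM). Ccnb2 and Ccna2 overlapped and Ccne1 was lower, beside 23.4% of all tested genes that were higher without overlap. With the offset, 4 of the 68 genes were lower and 1 higher, beside 550 of 16026 genes in all. No E2F or DP factor, INK4 inhibitor or SCF and APC/C subunit was called in that fit, and 1 of 15 E2F targets was. The remaining calls were in the CDK phosphorylation, quiescence and p53 lists. Before transplant none of 69 tested was called by edgeR.

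From before transplant to day 7, 26 of these genes rose and 5 fell among 69 tested in WT libraries, and 33 rose and 4 fell among 68 in cKO libraries. Of all genes, 9.7% rose and 10.3% fell in WT and 19.7% rose and 16.8% fell in cKO libraries, which are also the shares to set beside each list count that follows. All 5 E, A and B cyclins were called higher in both on counts scaled by TMM, although Ccne1 in cKO libraries was not higher in TPM. For example, Ccnb1 rose by 3.54 ± 0.57 in WT and 5.03 ± 0.41 in cKO libraries, and Cdk1 rose by 5.03 ± 0.68 and 6.86 ± 0.74. Of 15 E2F targets 11 rose in WT, with the smallest p for Cdc6 (4.05 ± 0.58), and 12 in cKO libraries, with the smallest p for Pcna (5.89 ± 0.41). The CDK-binding subunit Cks1b rose by 4.32 ± 0.57 and 5.73 ± 0.41. Ccnd1 fell by 4.79 on the log2 scale in WT libraries, to between 1 and 9 estimated counts. Foxp1, a keeper of T cell quiescence, fell by 3.92 in WT and by 3.15 in cKO libraries on the log2 scale, and 3 of 7 quiescence factors fell in each. All 3 CDK-activating kinase subunits rose in cKO libraries (Ccnh by 2.84 ± 0.48) and none passed in WT libraries; that difference between genotypes did not pass the interaction test, which called 0 of the 69 genes by edgeR. Comparisons by stage and by genotype share libraries, so these values are set side by side and not counted as separate evidence.

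**Figure D5:**
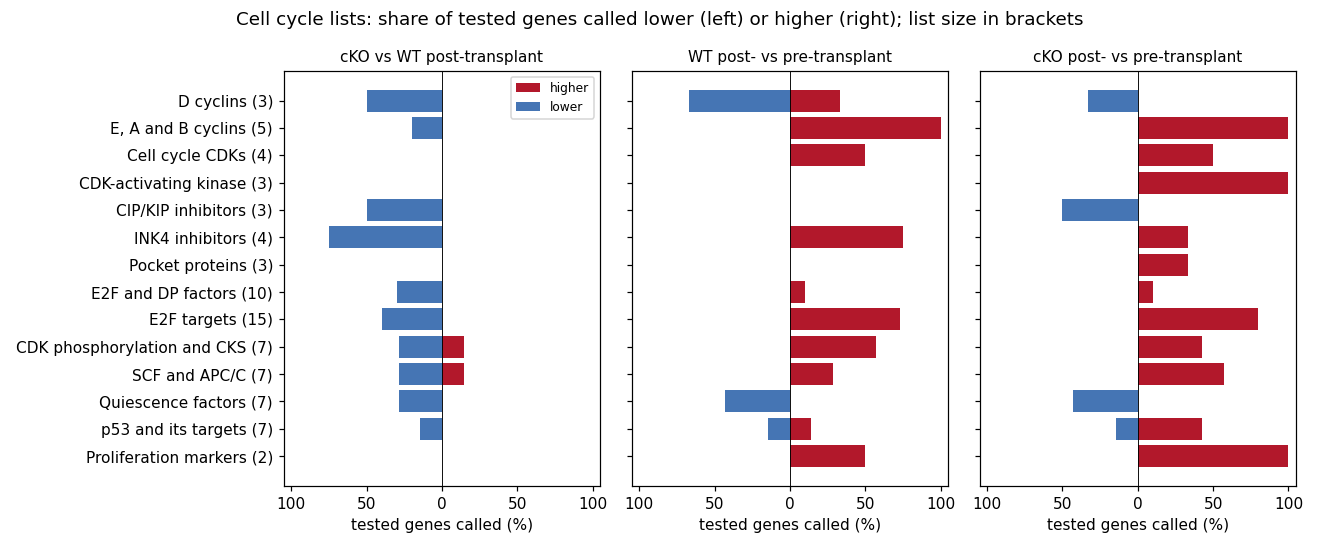
Share of tested genes called higher or lower at a false discovery rate below 0.1 in each of the 14 cell cycle lists, members included, for cKO against WT at day 7 and for day 7 against pre-transplant in each genotype. Calls in the E2F lists go down in the first panel, where the median log2 fold change of the E2F targets is 0.20. Calls of the E, A and B cyclins and E2F targets go up in the other panels.

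The genes whose pattern over the 12 libraries was most like that of a member, by Pearson correlation of log2(TPM + 1), are given here for each member. Ccna2 was nearest to the mitotic cyclin Ccnb2 (r = 0.92) and then Tnfsf9 (r = 0.92). Ccnd3 was nearest to B4galnt1 (r = 0.99) and Myo1g (r = 0.99), Ccnd2 to Chkb (r = 0.98) and Numa1 (r = 0.98), and Cdk2 to Cdk9 (r = 0.97) and Lbh (r = 0.97). Cdk4 was nearest to Dctn2 (r = 0.97) and Grcc10 (r = 0.96), Cdk6 to Lins1 and Gpsm1 (both r = 0.86), and Ccne1 to Kctd17 and Gpc1 (both r = 0.87). For the inhibitors these were Zbtb45 (r = 0.98) and Gdpd5 (r = 0.94) for Cdkn1a, Wdr37 (r = 0.96) and Stk38l (r = 0.95) for Cdkn1b, and Ly6c2 (r = 0.91) and Metrn (r = 0.89) for Cdkn2c. The 12 points share depth, stage, cell make-up and GC contrast, and Ccnd3 itself followed the GC contrast with r = 0.91 over these libraries.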

How the data were processed

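RNA of 12 libraries (SMART-Seq HT cDNA, Nextera XT libraries, paired ends on a NovaSeq) was quantified by the authors, who deposited Kallisto 0.46.2 estimated counts and TPM for 117497 transcripts per library; the labels name limma and the build mm9, and the transcript release is not given in the sources used here. The cDNA does not mark strand. Estimated counts were rounded and summed over GENCODE M21 (GRCm38) genes, which matched 116374 transcripts and 35855 genes. Totals were 4520270 to 32657005.

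Groups came from the labels. Each comparison was fitted on its own groups, the interaction on all 12 libraries, with the quasi-likelihood test of edgeR 4.0.16 (TMM, filterByExpr, Benjamini-Hochberg over all genes, threshold 0.1 as in the study), in R 4.3.3. Alternatives used limma 3.58.1, DESeq2 1.42.0, the replicate number as a block, a loess offset on GC content and length (span 0.4), thinned counts and single libraries left out. The test scripts were checked on simulated data. Named genes were all members, up to 3 called genes per list with the smallest p (or, with none called, the one with the highest mean TPM), and the 2 genes most like each member. The members and lists were chosen with earlier results of these data known.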

Additional observations from a re-analysis of the deposited data

How the results depend on the processing

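Of the members' fold changes under alternatives that keep all libraries, 356 kept direction and side of the threshold, 33 lost the call, 9 gained one and 20 changed sign. This tally takes in all members for the comparisons of groups, but only Ccnd3 and Cdkn1a for the interaction. Every member that changed sign was not called in the edgeR fit reported. For the genotypes before transplant, 7 genes were called, against 2 by limma-voom, 1451 by DESeq2, 3 with DESeq2 size factors, 619 with no filter on low counts, 3 in 1 fit over 12 libraries and 0 to 2739 with single libraries left out (members 0 to 3). At day 7, 4 members and 2868 genes became 7 and 4524 by DESeq2 and 0 and 550 with the GC content and length offset. In 1 fit over 12 libraries 2 members and 3039 of 21526 genes were called, and leaving out single libraries gave 0 to 6 members and 0 to 5299 genes. Leaving out single libraries gave 1 to 6 members and 1579 to 4156 genes for the WT stage comparison and 3 to 5 members and 5242 to 7114 genes for the cKO one. For the interaction, with 0 members and 1 gene called, DESeq2 gave 1 and 1713, no filter 580 genes, the offset 2, thinned counts 0, and leaving out single libraries 0 to 1 members and 0 to 2093 genes. The cause of these shifts was not tested.

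Replicate numbers are shared by the groups, but same-numbered libraries did not all correlate above 0.1, so the numbers were not taken as pairs. With the replicate block, 0 genes were called before transplant and 0 genes for the interaction (2 with the offset). At day 7 it called 2 members among 2038 of 16026 genes (2 genes with block and offset, 0 members). In each stage comparison the block called 4 members in place of 6, among 3097 of 16790 genes in WT and 5478 of 18535 genes in cKO libraries. Ccne1, Ccna2 and Cdkn2c were called in both, with Cdk4 in WT and Cdkn1a in cKO libraries. The block gave Cdkn1b 0.011 before transplant. With block and offset, Cdk6 was -0.58 before transplant and 1.09 in the WT stage comparison, and Cdkn1b was -0.59 at day 7 and 0.40 in the WT stage comparison.

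Other sign changes (log2) were as follows. Before transplant, Cdk6 was -0.069 with no filter, -0.96 with counts scaled from TPM and -0.51 with the offset, Cdkn1b was 0.23 with thinned counts and Cdkn2c 0.30 by limma-voom. At day 7, Ccna2 was 0.11 in 1 fit over 12 libraries and Cdkn1b -0.53 with the offset. In the WT stage comparison, Cdk6 was 0.11 by DESeq2 and with its size factors, 0.087 with no filter, 0.32 with counts scaled from TPM, 1.15 with the offset and 0.20 in 1 fit over 12 libraries, and Cdkn1b was 0.28 with the offset. In the cKO stage comparison, Cdk6 was -0.016 with thinned counts. The Ccnd2 to Ccnd3 ratio by stage passed 0.05 in CPM (-2.33), and by genotype it was -0.064 with the offset, where Cdkn1b to Cdkn1a was -0.49. With single libraries left out, ranges that crossed 0 were -1.14 to 0.26 for Ccna2, -0.24 to 0.41 for Cdk6 and -0.50 to 0.12 for Cdkn1b before transplant, -0.48 to 0.048 for Ccna2 and -0.19 to 0.30 for Cdkn1b at day 7, -0.21 to 0.50 for Cdk6 in the WT stage comparison, and -0.14 to 0.61 for the Cdkn1b to Cdkn1a ratio by genotype.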
